A study of Cicer arietinum with 32 samples.

Results

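The transcripts described here are 6 chickpea (*Cicer arietinum*) transcripts of the basic helix-loop-helix (bHLH) family of transcription factors (TFs). They were taken from the study's list of tissue-specific transcripts by their family and by a listed tissue/organ other than the 20DAP seed. The list is ordered by identifier. The part of it used here ends at Ca_TC11944 and holds 1998 of the 38818 transcripts of the atlas, 117 of them with a TF family, so bHLH transcripts with later identifiers were not analysed as members. Of the 6, Ca_TC00460 and Ca_TC01989 were listed for root, Ca_TC11146, Ca_TC11323 and Ca_TC11324 for root hair, and Ca_TC11599 for FB1, the youngest flower bud stage. The part used gives no bHLH transcript for root tip, where it gives 6 TFs of other families.

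RNA was sequenced from 32 tissues/organs of a single chickpea genotype, ICC4958, with no treatment or transgene in any group. For each transcript and tissue/organ there is 1 value, by the study's methods an average over replicate libraries. The library table lists 3 libraries for 30 tissues/organs and 2 for the 20DAP and 30DAP seeds. For root, the values do not tell whether they are averages. The spread between replicates was therefore not in the data, no difference between tissues/organs could be tested, and all values below are descriptions. Roots and shoots came from 15-day-old seedlings in a culture room, root hairs from younger, dark-grown seedlings, nodules and buds from plants in the field, and the floral organs from partially opened flowers. For root tip and root hair the study's sources differ on the age of the seedlings. Age, light and tissue cannot be told apart between root and root hair, nor can age and tissue between root and root tip. Root hairs are outgrowths of epidermal cells, whereas root and root tip hold many cell types, and in such bulk samples fewer cells of a type and less RNA per cell cannot be told apart.

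bHLH proteins contact DNA through a basic region and pair with one another through the helix-loop-helix, and many bind the short E-box motif. The family is among the largest TF families of plants. In *Arabidopsis thaliana*, bHLH proteins of the RSL group drive root hair growth, others pair to control cell divisions in the vascular tissue of the root, and yet others are needed in the tapetum, the cell layer that feeds developing pollen.

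Levels are given in FPKM, a unit that divides the fragments of a transcript by its length and by the library's mapped fragments. Expressed means 0.5 FPKM or more. The tissue specificity index (TSI) compares the level in every tissue/organ with the highest one on log2(FPKM + 1). It is 0 for a transcript at the same level everywhere and 1 for a transcript found in a single tissue/organ, and the threshold was 0.9. The TSI computed here lay within 0.0015 of the listed one for 6 of 6 transcripts, with the same highest tissue/organ for 6 of 6. The 20DAP seed data hold estimated fragment counts and not FPKM, so they were kept for the TSI, as in the list, and set apart from all levels and correlations, which cover the other 31 tissues/organs. The 6 bHLH transcripts had estimated counts of 0 to 2.5 in the 20DAP seed, all under a floor of 3 counts.

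Some facts of the whole data set bear on these values. The FPKM of the 31 tissues/organs summed to between 597153 and 959753. In root, the tissue/organ where 2 of the 6 transcripts peaked, 100% of the values above 0 had at most 2 decimals, against 32.7 to 50.1% in the other 30, and the lowest value above 0 was 0.01. Whether the root values are averages like the others cannot be told from them, so their precision may differ. The sample titled shoot carries a second label naming root, but a photosystem I subunit F transcript, Ca_TC00866, stood at 1727 FPKM there and at 22.7 FPKM in root, and the title was followed. Ca_TC00743, annotated as root hair specific 14, stood at 1025 FPKM in root hair, 4.63 FPKM in root tip and 0.090 FPKM in root. For the buds, Ca_TC01098, annotated as LOB domain-containing protein 27, stood at 2.94 FPKM in FB1 and 0.22 FPKM in FB2. Ca_TC00743 and Ca_TC01098 are themselves on the study's list, for root hair and FB1, made from these data. Their peaks are therefore not independent checks of the samples.

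The TSI of the 6 transcripts ranged from 0.928 for Ca_TC11146 to 0.986 for Ca_TC11324. Since the TSI chose them, that all 6 reached 0.9 is no result, and it is given beside the background of all transcripts. For this background, and wherever all expressed transcripts are named, a value of 0.5 in any of the 32 tissues/organs sufficed, 20DAP seed counts included. Of 35225 such expressed transcripts, 22.4% reached a TSI of 0.9, and 0.803% did so with their highest level in root, 0.965% in root hair and 0.511% in FB1. Those 22.4% were 7873 transcripts, and 6116 reached 0.9 with the 20DAP seed left out. Just inside the threshold were Ca_TC11146 and Ca_TC01989, the latter with a TSI of 0.938. Just outside it, among the other bHLH transcripts that the study's tables name, were Ca_TC13153 with 0.892 and Ca_TC00237 with 0.856.

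Since the TSI chose the 6 transcripts, that they were expressed in few tissues/organs, mainly those of their listing, is no result. All expressed transcripts were expressed in a median of 27 of the 31 tissues/organs. Of 186 values, 20 reached an FPKM of 0.5, and these fell in 9 of 31 tissues/organs, whereas 22 had none of the 6. Root hair had 5 of the 6 transcripts at or above 0.5 FPKM, against 49.1% of all transcripts there. Root tip had 4, against 57.4% of all transcripts, and root had 2, against 56.6%. FB1 and FB2 had 2 each, with 62.4% and 62.7% of all transcripts, and germinating seedling had 2, with 61.9%. FB3, androecium and bracteole had 1 each, with 62.4%, 57.2% and 56.4% of all transcripts. The nodule, although it forms on roots, had none, against 47.7% of all transcripts, and none was expressed in either leaf sample, in FL1 to FL5 or in a seed stage held in FPKM.

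**Figure D1:**
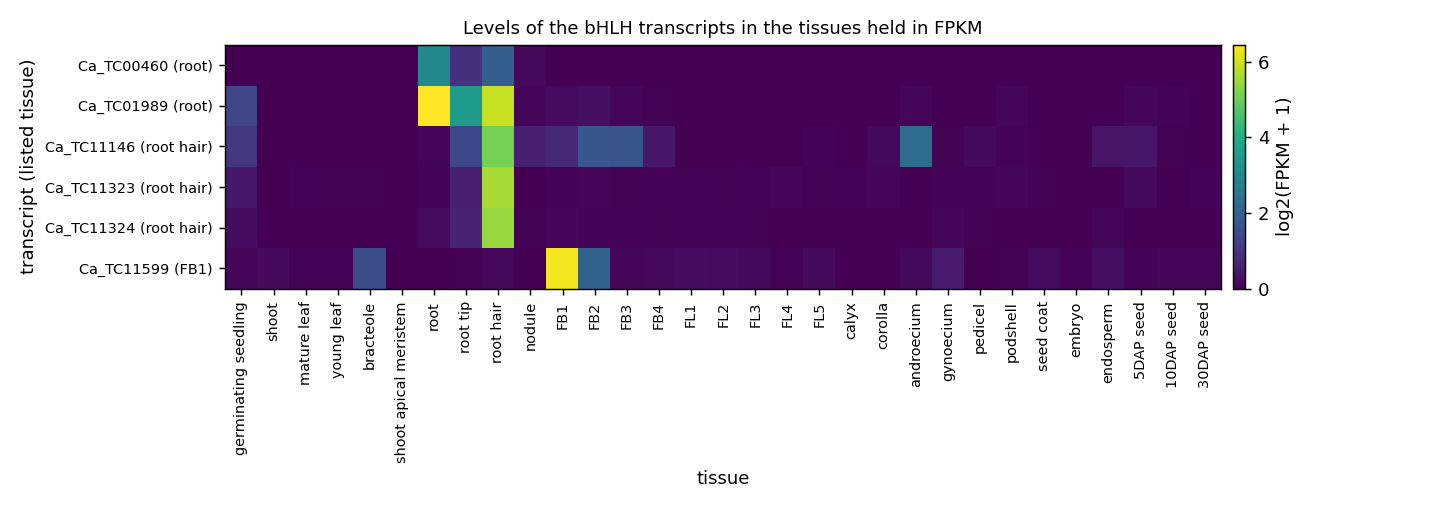
Levels of the 6 bHLH transcripts as log2(FPKM + 1), in colour, with transcripts as rows, labelled with their listed tissue/organ, and the 31 tissues/organs in FPKM as columns. The upper 5 rows are bright in the root tissues, Ca_TC11146 is also visible in androecium and young buds, and Ca_TC11599 is bright in FB1 at 80.5 FPKM.

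Both root-listed transcripts fell in the same order through the root tissues, from root through root hair and root tip to nodule. Ca_TC01989 stood at 86.3 FPKM in root, 59.2 FPKM in root hair, 10.4 FPKM in root tip and 0.060 FPKM in nodule. Outside the root tissues its highest level was 1.60 FPKM in germinating seedling, a sample of young seedlings. Its next levels were 0.193 FPKM in FB2 and 0.133 FPKM in FB1, and it was at 0 in 16 of the 31 tissues/organs. The root tissues held 98.5% of its FPKM summed over the 31.

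The root level of Ca_TC01989 was 1.46 times its root hair level, a difference of 0.54 on log2(FPKM + 1). This was the smallest step from the highest to the next tissue/organ among the 6. It came to 0.30 when all tissues/organs were scaled to the same sum and to 0.32 after quantile normalization. Without replicate values, it cannot be said whether root and root hair differ for this transcript. In root it ranked 1613 of 27449 transcripts above 0. Beyond its family, no annotation was used for it here.

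Ca_TC00460 had the lowest peak of the 6. It stood at 7.37 FPKM in root, 2.82 FPKM in root hair, 0.907 FPKM in root tip and 0.107 FPKM in nodule. In every other tissue/organ it was at or below 0.017 FPKM, and in 21 of the 31 it was at 0, so that 99.3% of its summed FPKM lay in the root tissues. It ranked 11276 of 27449 in root, around the middle of the transcripts present. The step from root to root hair was 2.61-fold, or 1.13 on log2(FPKM + 1). It was 0.93 when all tissues/organs were scaled to the same sum and 0.50 after quantile normalization.

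Ca_TC00460 is the only one of the 6 with a position and an annotation in the tables used here. It lies on chromosome 1 of the kabuli genome v1.0, from 3163686 to 3166792, a span of 3107 bases. Its best match in Arabidopsis is AT1G68810, a bHLH gene known as TMO5-LIKE1, one of the genes that control cell divisions in the root's vascular tissue in that species. The transcripts on either side did not share its pattern. Ca_TC00459, annotated as an ARM repeat protein, stood at 6.51 FPKM in root and 4.70 FPKM in root hair, with a TSI of 0.730. Ca_TC00461, annotated as a xylem bark cysteine peptidase, was at 0 in both.

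**Figure D2:**
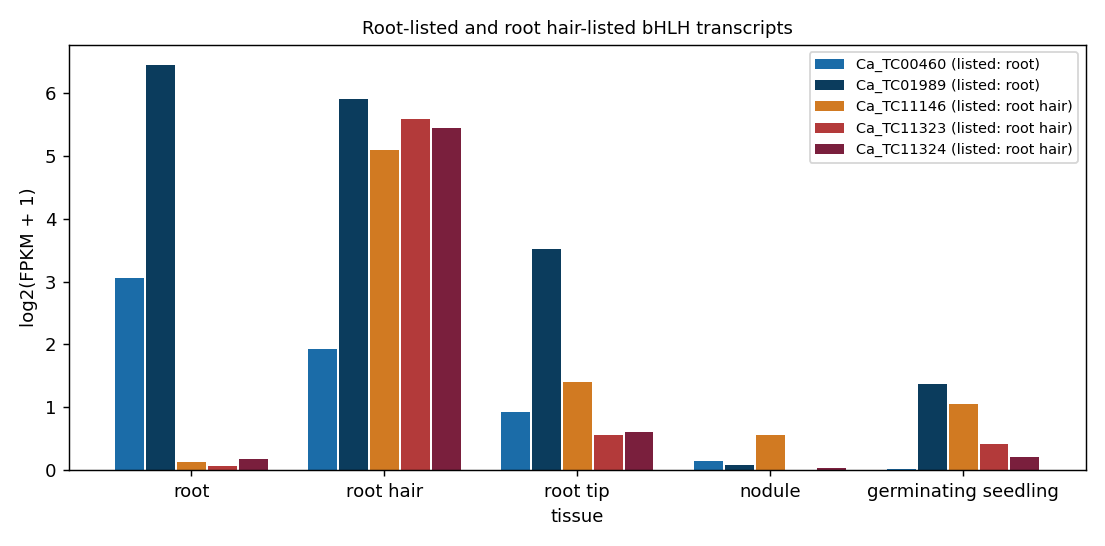
Levels as log2(FPKM + 1) of the 5 bHLH transcripts listed for root or root hair, as bars grouped by tissue/organ, 1 value each and so without error bars. The root-listed transcripts (blue) are high in root and also in root hair (59.2 FPKM for Ca_TC01989), whereas the root hair-listed transcripts (orange to dark red) are near 0 in root, at 0.050 to 0.130 FPKM.

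The 3 root hair-listed transcripts were close to one another in level in root hair. Ca_TC11323 stood at 47.3 FPKM, Ca_TC11324 at 42.4 FPKM and Ca_TC11146 at 33.2 FPKM. In root they stood at 0.050, 0.130 and 0.090 FPKM, so none was counted as expressed there. The 2 sets were thus unlike in the other's tissue/organ, since the root-listed pair was well above 0.5 FPKM in root hair. Root hair exceeded root by at least 1 on log2(FPKM + 1) for 14.8% of the transcripts expressed in either, and root exceeded root hair by as much for 32.8%. All 3 root hair-listed transcripts belong to the first of these, which their listing made likely. Ca_TC00460 belongs to the second as deposited, but not with a common sum (0.93) or after quantile normalization (0.50).

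Among all transcripts listed for root or root hair, those for root had a median root hair level of 0.785% of their root level, over 108 transcripts. Ca_TC01989 had 68.6% and Ca_TC00460 38.3%, which ranked 4 and 10 of the 108. In the other direction, the 120 transcripts listed for root hair had a median root level of 0.962% of their root hair level. Ca_TC11146 had 0.271%, Ca_TC11323 0.106% and Ca_TC11324 0.307%, ranking 80, 85 and 76 of the 120. The root-listed bHLH transcripts thus had more of their signal in root hair than most transcripts of their list, and the root hair-listed ones lay in the lower part of theirs. These ranks are descriptions of an incomplete list.

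**Figure D3:**
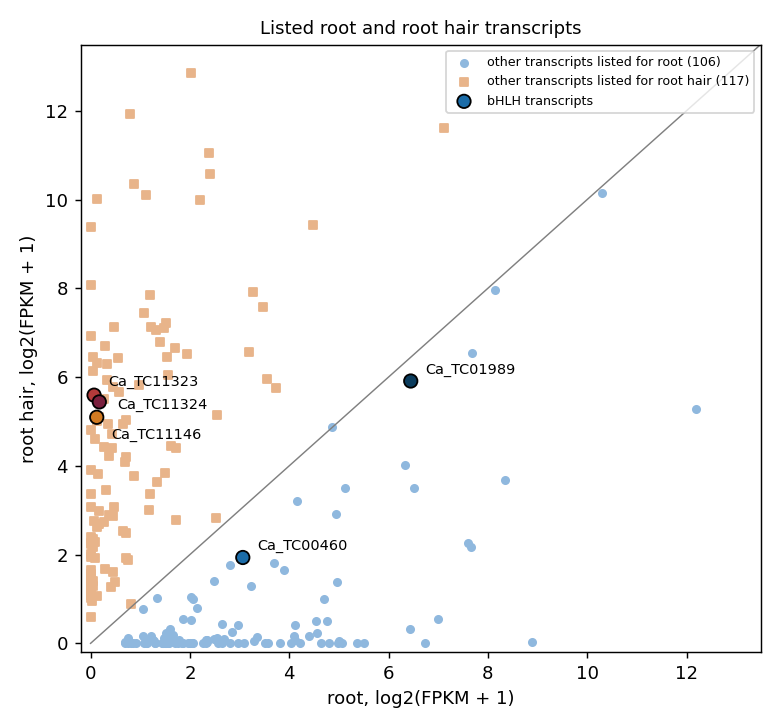
Level in root (horizontal) and root hair (vertical), both as log2(FPKM + 1), of every transcript listed for root (circles) or root hair (squares), with the 5 bHLH transcripts outlined and named and a line of equal levels. Ca_TC01989 lies near the line at 86.3 FPKM in root and 59.2 FPKM in root hair, while the 3 root hair-listed bHLH transcripts lie along the vertical axis.

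Ca_TC11323 and Ca_TC11324 had the largest shares of their summed FPKM in 1 tissue/organ among the 6. Root hair held 96.1% of the summed FPKM of Ca_TC11323 and 96.9% of that of Ca_TC11324. Their next tissue/organ was root tip in both cases, at 0.480 and 0.523 FPKM, followed by germinating seedling, at 0.333 and 0.163 FPKM. The step from root hair to root tip was 98.4-fold for Ca_TC11323 and 81.1-fold for Ca_TC11324, the widest of the 6. At levels far below 0.5 FPKM their values were not the same, but without replicate values it cannot be said whether they differ there. Ca_TC11323 was above 0 in every tissue/organ but nodule, with a median of 0.047 FPKM, whereas Ca_TC11324 was at 0 in 12 of the 31, with a median of 0.017 FPKM.

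The identifiers of the pair are consecutive. In the part of the study's position table used here, 1651 of 1807 pairs of consecutive rows lay in chromosomal order, but the positions of this pair themselves were not used here. Transcripts with the nearest numbers were unlike them. Ca_TC11322 had 0.573 FPKM in root hair and its peak of 34.1 FPKM in root tip, and Ca_TC11325 had 5.61 FPKM in root hair and its peak of 29.7 FPKM in endosperm. If the pair are near-identical copies, reads could have been divided between them, and their separate levels are uncertain to that extent. Their sequences were not used here.

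Ca_TC11146 differed from the pair in having a floral signal. Below its root hair level of 33.2 FPKM, its next level was 3.89 FPKM in androecium, the stamens, and then 2.31 FPKM in FB2 and 2.20 FPKM in FB3. It also stood at 0.683 FPKM in FB1 and 0.337 FPKM in FB4, and was at or below 0.040 FPKM in the flower stages FL1 to FL5. Its levels in buds were thus highest in the FB2 and FB3 stages. Among the other floral organs it stood at 0.10 FPKM in corolla, 0.020 FPKM in gynoecium and 0.013 FPKM in calyx.

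With root tip at 1.64 FPKM and germinating seedling at 1.08 FPKM, Ca_TC11146 was expressed in 7 tissues/organs, more than any other of the 6. It was also the member with the largest level in nodule, 0.473 FPKM. The root tissues held 75.5% of its summed FPKM, against 97.2% for Ca_TC11323 and 98.5% for Ca_TC11324. Its androecium level was 11.7% of its root hair level, which ranked 2 of the 120 root hair-listed transcripts, whose median was 0%. Of the 10 other TFs listed for root hair, none exceeded 0.153 FPKM in androecium.

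Ca_TC11599, the bud transcript, had nearly all of its signal outside the root tissues. It stood at 80.5 FPKM in FB1, 3.03 FPKM in FB2, 0.067 FPKM in FB3 and 0.10 FPKM in FB4. The step from FB1 to FB2 was 26.6-fold, or 4.34 on log2(FPKM + 1), and FB1 exceeded FB2 by at least 1 for 2.24% of the transcripts expressed in either. Its listing for FB1 made it likely that Ca_TC11599 was among these. From FB3 to FL5 it stayed at or below 0.15 FPKM.

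After FB2, the next level of Ca_TC11599 was 1.88 FPKM in bracteole, the small leaf-like organ below the flower, while mature and young leaves were both at 0.040 FPKM. Among the organs of the opened flower, gynoecium was highest at 0.390 FPKM, androecium had 0.103 FPKM, and calyx and corolla had 0.017 FPKM each. The organs were dissected from flowers well past the bud stages in which this transcript was expressed, so they do not show which organ of the bud held it. FB1 accounted for 91.9% of its summed FPKM and the root tissues for 0.152%. It ranked 1752 of 32359 transcripts above 0 in FB1. Its FB2 level was 3.76% of that in FB1, against a median of 8.58% over the 77 transcripts listed for FB1, at rank 61 of 77.

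**Figure D4:**
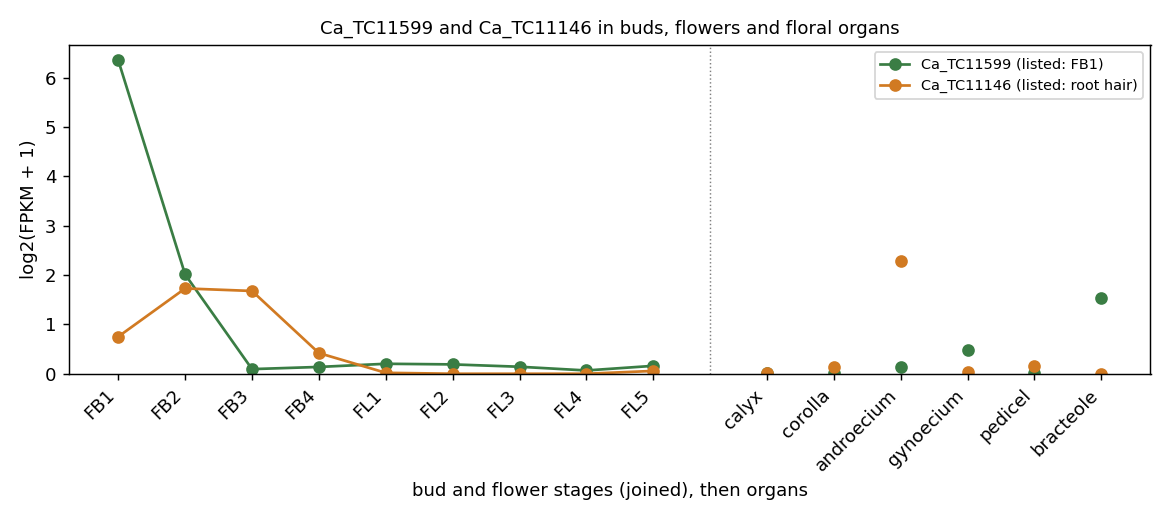
Levels as log2(FPKM + 1) of Ca_TC11599 (green) and Ca_TC11146 (orange) over the bud stages FB1 to FB4 and flower stages FL1 to FL5, joined by lines, and in the floral organs, pedicel and bracteole, as separate points. Ca_TC11599 falls from 80.5 FPKM in FB1 to 3.03 FPKM in FB2, and Ca_TC11146 is highest in FB2 and FB3 among the stages and at 3.89 FPKM in androecium.

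Levels were compared between the 6 transcripts over the 31 tissues/organs. On log2(FPKM + 1), Pearson's r was 0.998 between Ca_TC11323 and Ca_TC11324 and 0.964 between Ca_TC00460 and Ca_TC01989. Ca_TC11146 had an r of 0.828 and 0.831 with the first pair. Between Ca_TC11599 and the other 5, r ranged from -0.092 to 0.081. These values rest on few tissues/organs, since most points lie near 0. Spearman's rho was 0.382 for the first pair and 0.395 for the second, and without root hair r fell to 0.858 for the first pair. For Ca_TC11146 with the same pair, r without root hair was 0.348 and 0.376. The grouping by listed tissue/organ was not kept by every measure. The highest rho of the 15 pairs, 0.742, was between Ca_TC01989 and Ca_TC11146, which are listed for different tissues/organs. Without root, Ca_TC00460 had an r of 0.929 with Ca_TC11323 and 0.937 with Ca_TC11324, above the 0.829 and 0.832 of Ca_TC11146.

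For each transcript, the 3 most alike transcripts by Pearson's r were taken from the 32420 that reached 1 FPKM in any of the 31 tissues/organs. Since r chose them, that they share the leading tissues/organs of the transcript is no result. For Ca_TC00460 they were Ca_TC16124, Ca_TC03728 and Ca_TC00681, with an r of 0.988, 0.984 and 0.982, all highest in root and next in root hair. Ca_TC00681 reached 79.8 FPKM in root. For Ca_TC01989 they were Ca_TC27433, Ca_TC26535 and Ca_TC12833, with an r of 0.990, 0.989 and 0.988. Of these, Ca_TC27433 was slightly higher in root and the other pair slightly higher in root hair, at 8.73 FPKM for Ca_TC26535. All 3 thus had root and root hair as their leading tissues/organs, but Ca_TC27433 only at 5.66 and 5.17 FPKM. An r of at least 0.95 was reached by 20 transcripts for each of the root-listed pair.

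The transcripts most like the root hair pair also had their highest level in root hair. Ca_TC32586 came first for both, with an r of 0.998 and 0.999, and stood at 79.2 FPKM in root hair and 0.773 FPKM in root tip. Ca_TC11324 came second for Ca_TC11323, followed by Ca_TC23977. Ca_TC16095 and Ca_TC20127 came next for Ca_TC11324, at 20.4 and 14.4 FPKM in root hair. An r of at least 0.95 was reached by 131 transcripts for Ca_TC11323 and by 134 for Ca_TC11324.

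No transcript reached that r for Ca_TC11146. The most alike, Ca_TC07050 with an r of 0.939 and Ca_TC28884 with 0.927, shared its order of root hair and then androecium. Ca_TC07050 stood at 165.3 FPKM in root hair and 9.41 FPKM in androecium, and Ca_TC28884 at 14.2 and 1.52 FPKM. After them, Ca_TC17631 with an r of 0.899, was next highest in root tip, at 6.41 FPKM. For Ca_TC11599, 64 transcripts reached an r of 0.95, led by Ca_TC02230, Ca_TC11547 and Ca_TC23944 with 0.997, 0.997 and 0.996. These were all highest in FB1, at 75.4, 6.11 and 207.1 FPKM, and next in FB2.

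Set beside the other TFs listed for the same tissues/organs, the bHLH transcripts were at middle to high levels. In root, Ca_TC01989 was the highest of 9 listed TFs, followed by an HB transcript, Ca_TC05640, at 30.8 FPKM and a MYB transcript, Ca_TC08683, at 24.9 FPKM. Ca_TC00460 was sixth. Ca_TC05640 was at 0 in root hair and Ca_TC08683 at 0.990 FPKM, unlike Ca_TC01989. In root hair, the MYB transcripts Ca_TC06410 and Ca_TC01765 led at 138.8 and 86.7 FPKM, followed by a LOB transcript, Ca_TC05376, at 61.3 FPKM and a MYB transcript, Ca_TC09818, at 49.7 FPKM. The 3 bHLH transcripts came next, in places 5 to 7 of 11.

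Those 4 leading TFs of root hair were also expressed in germinating seedlings, at 5.62 FPKM or more, where the 3 bHLH transcripts stood at 0.163 to 1.08 FPKM. In FB1, Ca_TC11599 was the highest of 8 listed TFs, and the other 7 ranged from 1.25 FPKM for a MYB transcript, Ca_TC07467, to 4.92 FPKM for an Alfin-like transcript, Ca_TC04644. Over root and root hair, bHLH transcripts made up 5 of 20 listed TFs, and none of the 6 TFs listed for root tip or of those for nodule. Over all tissues/organs of the list used here they made up 6 of 117, behind MYB with 12, AP2-EREBP with 11, and CCHC and LOB with 10 each. CCAAT and HB, with 7 each, were also ahead, and MADS and WRKY had 6 each. These counts were not set against the size of each family. The study counts more AP2-EREBP and MYB than bHLH transcripts, so the counts are no result about the family.

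The study's other tables name 12 further bHLH transcripts, drawn from tables other than the tissue-specific list. They are only a small part of the bHLH family that the study counts, so their values do not stand for the rest of it. Their TSI had a median of 0.695, against 0.698 for all expressed transcripts, both with the 20DAP seed counts. Leaving that seed out moved the TSI of the 12 in either direction. It fell most for Ca_TC01113, from 0.702 to 0.537, and rose most for Ca_TC13153, from 0.892 to 0.920. No median was taken without that seed. The 12 were expressed in a median of 24 of the 31 tissues/organs, against 27 for all expressed transcripts and 3 for the 6 listed ones. Since the TSI chose the 6, their low median is no result. Ca_TC12387 and Ca_TC24481 were expressed in all 31. Only Ca_TC23573 reached a TSI of 0.9, with 0.970, and its identifier lies past the end of the list used. The study names it among transcripts in seed weight loci that were shortlisted for tissue-specific expression. That it reached 0.9 is therefore no result. It had its largest value in the 20DAP seed counts and 6.16 FPKM in the 30DAP seed. By highest level in the 31, 2 of the 12 peaked in root tissues, both in root hair, against 18.0% of all expressed transcripts. With a common sum or quantile normalization, Ca_TC01114 was highest in root hair too. That 5 of the 6 listed ones peaked in root tissues follows from their listing.

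A few of these transcripts resembled listed ones. Ca_TC13153 stood at 12.2 FPKM in FB1, 0.987 FPKM in bracteole, 0.937 FPKM in endosperm and 0.577 FPKM in FB2. These include the 3 tissues/organs that led Ca_TC11599, and among the 32420 candidates it ranked 64 by r with that transcript. With the 20DAP seed left out, its TSI was 0.920. Ca_TC00237 stood at 158.2 FPKM in root hair, above all 3 root hair-listed bHLH transcripts, but also at 7.56 FPKM in root tip, 5.15 FPKM in 10DAP seed, 4.94 FPKM in germinating seedling and 3.97 FPKM in root. It was expressed in 19 tissues/organs, and its r was 0.814 with Ca_TC11323 and 0.815 with Ca_TC11324.

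Ca_TC00237 shares its best Arabidopsis match, the bHLH gene AT4G37850, with Ca_TC01113 and Ca_TC01114. These stood at 37.7 and 25.4 FPKM in root hair, but at 8.02 and 12.6 FPKM in FB1 and at 0.810 and 0 FPKM in root. Of the 3, Ca_TC01113 lay within the 33.2 to 47.3 FPKM of the root hair-listed transcripts, Ca_TC00237 above and Ca_TC01114 below, and each was expressed in 19 or more tissues/organs. The highest level of any of the 12 was that of Ca_TC04612 in corolla, 1261 FPKM, against 0.010 FPKM in root hair. The 3 transcripts annotated as bHLH by similarity only, Ca_TC00201, Ca_TC00266 and Ca_TC01250, had a TSI of 0.829, 0.708 and 0.637, and were highest among the 31 tissues/organs in embryo, shoot and seed coat.

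**Figure D5:**
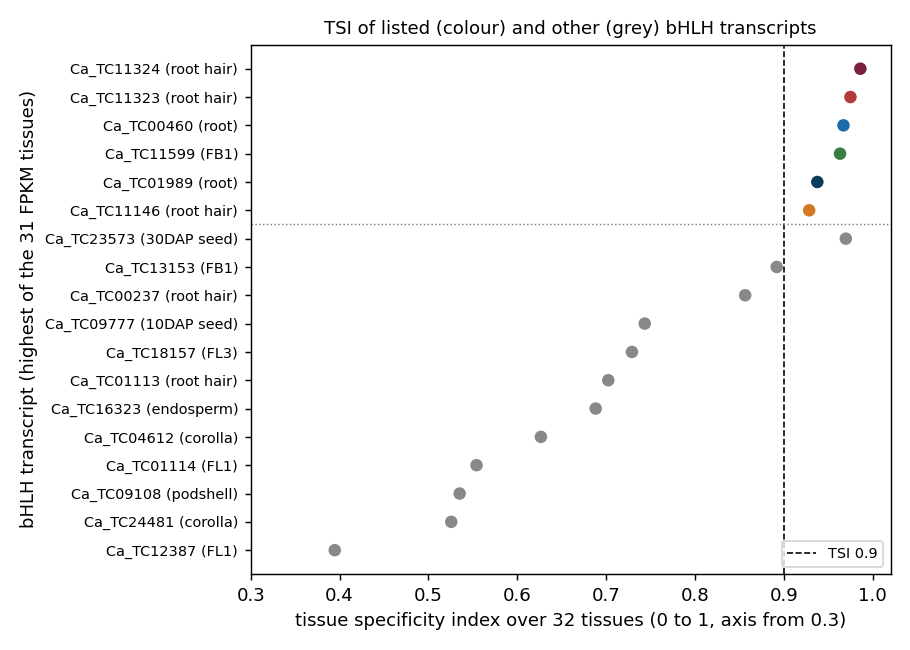
TSI over 32 tissues/organs (horizontal, from 0.3) of the 6 listed bHLH transcripts (colour, above the dotted line) and of 12 others (grey), each with its highest tissue/organ of the 31 in FPKM. The dashed line is the threshold of 0.9, which Ca_TC13153 misses with 0.892 and Ca_TC23573 passes with 0.970.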

How the data were processed

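The authors passed the paired-end reads of 94 libraries through NGS QC Toolkit, mapped these reads on their assembled transcriptome (38818 transcripts) using bowtie2, and used RSEM for quantification, followed by averaging of replicates. The authors deposited FPKM for 31 tissues/organs. The 20DAP seed values, deposited under the same heading, are estimated counts, as read from the values: they sum to 29579443, and 22.2% of those above 0 are whole numbers, against at most 0.791% elsewhere. The FPKM values are averages by the study's methods, which cannot be told from the values for root, and transcript lengths were not used. The fragments behind a value were therefore not computed, and no interval or floor is given.

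TSI was computed from log2(FPKM + 1) in the 32 tissues/organs, keeping transcripts that reached 0.5 FPKM anywhere, and correlations over 31. Fold ratios are of FPKM as deposited. The members and lists were chosen with earlier results of these data known. The text names the members, the 3 transcripts most alike to each, the other bHLH transcripts, the TFs of other families listed for root, root hair and FB1 (only some with values) and the markers. Another 3 transcripts annotated as bHLH by similarity only are given once. Transcripts with neighbouring positions or numbers were named after their values were seen. The alternatives were the pseudocount (0.1), thresholds, scaling, quantile normalization, the correlation measure and leaving out tissues/organs. The code was tested on simulated data. Calculations used Python 3.11.15, numpy 2.4.6 and pandas 2.3.3. The authors' list is held only in part, so no enrichment was computed. Sequences and positions of most members were not used here.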

Additional observations from a re-analysis of the deposited data

How the results depend on the processing

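No paired analysis was possible because each tissue/organ has 1 value per transcript. The highest tissue/organ of all 6 transcripts stayed the same with the 20DAP seed left out, with a common sum and after quantile normalization, and their TSI then stayed between 0.922 and 0.990. With a pseudocount of 0.1, 3 of the 6 reached a TSI of 0.9 and 4504 of all transcripts did, because low values then weigh more. Ca_TC01989, Ca_TC11599 and Ca_TC11146 fell under it, at 0.899, 0.890 and 0.850, and the TSI of Ca_TC00460, 0.946, then exceeded that of Ca_TC11323, 0.919. On untransformed values 27130 of all transcripts and 8 of the other 12 bHLH transcripts reached 0.9, and 4687 of all and 4 of the 6 reached a threshold of 0.95, Ca_TC01989 and Ca_TC11146 being lost. With the 20DAP seed left out or a common sum, 2 of the 12 reached 0.9, the second being Ca_TC13153. The 20 values of at least 0.5 FPKM became 45 at 0.1 FPKM. The median r over the 15 pairs, 0.535, was 0.347 by Spearman's rho, 0.329 on untransformed FPKM, 0.201 without root hair, 0.829 without root and 0.638 after quantile normalization. The root or root hair value alone thus moved it in either direction. Depth and replicate spread, which limit every value, were not in the data.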
